A study of Mus musculus with 6 samples.

Results

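The genes described here encode the parts of a chemical synapse: proteins of the synaptic vesicle and its release site, the enzymes and transporters that make or load a transmitter, and the receptors that read it. They are 34 genes named in a list, of 39179 gene rows counted in each library. By role, 14 belong to the release machinery, 8 to glutamate, 4 to GABA, 2 to glycine, 5 to acetylcholine and 1 to dopamine. Of these, 33 had a row and all 33 passed the filter on low counts, while Slc18a3, the vesicular acetylcholine transporter, matched no row and was not analysed here.

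Retinal RNA came from newborn mice at postnatal day 0.5 on a mixed, mostly CD-1 background, with 3 libraries per group. Control mice were Lhx2 lox/lox, without Cre. Conditional knockout (cKO) mice were Lhx2 lox/lox; Pdgfra-Cre, so that both groups carried the floxed alleles and only the cKO mice had Cre, a recombinase, under Pdgfra sequences. LHX2, the protein of the floxed gene, is a LIM homeodomain factor that retinal progenitors and Müller glia use. The labels do not say which retinal cells had recombined, nor whether a library holds 1 retina or several.

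A presynaptic terminal stores transmitter in vesicles, docks them at an active zone and fuses them through the SNARE proteins when calcium enters. Which transmitter a neuron uses is set by the transporter that fills its vesicles and by the enzymes that make the transmitter. In the newborn mouse retina, ganglion cells and amacrine cells are already present and exchange cholinergic signals in spontaneous waves, while most rods and bipolar cells, which use ribbon synapses, have yet to form contacts.

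Libraries keep their label numbers, and values are given in the order controls 2, 3 and 4, then cKO 1, 2 and 3. The 6 libraries held 31483170 to 66947478 reads on genes and fell into a pair of sets that crossed genotype, by how many of their deposited counts were ambiguous between genes: 3.13 to 3.20% in set A (control 2, cKO 1, cKO 2) and 2.63 to 2.69% in set B (control 3, control 4, cKO 3). The mitochondrial genome gave 1.15 to 1.79% of gene counts in the former set, against 7.14 to 9.55% in the latter. Controls 2 and 4 were male by Y-linked reads, and control 3 and all cKO libraries were female. Every difference within set A thus compares female cKO libraries with control 2, a male, and cannot separate genotype from sex. Within set B, control 3 shared the sex of cKO 3 and control 4 did not. Counted over all its exons, Lhx2 itself gave 399, 266 and 258 CPM (read counts scaled to library size, with TMM factors) for controls 2, 3 and 4, against 252, 287 and 224 CPM for the cKO libraries 1, 2 and 3. With library set in the model it fell by 0.40 on the log2 scale (adjusted p = 0.0338, edgeR). That call did not hold when control 2, control 3, cKO 2 or cKO 3 was left out, nor when sex was added to the model (-0.35, adjusted p = 0.371, edgeR).

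Of the 33 tested genes, 8 were higher in cKO retinas at adjusted p under 0.05 and none was lower (edgeR's quasi-likelihood test with library set as a term, p-values adjusted over all 16691 genes tested). Those 8 are Stx1a, Cplx1 and Cplx2 of the release machinery, the vesicular glutamate transporters Slc17a6 and Slc17a7, the AMPA receptor subunit Gria2, and the nicotinic receptor subunits Chrna3 and Chrnb3. They make up 24.2% of the tested members, against 6.36% of all genes called higher and 5.63% called lower. At an unadjusted p under 0.05 there were 15 members, beside 26.3% of all genes. No GABA, glycine or dopamine gene was called.

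Those calls depended on the model and on the libraries. With genotype alone in the model no member was called at the adjusted threshold or at an unadjusted p under 0.05. Over all genes 0.216% were called higher and 0% lower, and 7.74% had an unadjusted p under 0.05 (edgeR). With library set and sex as terms no member was called either, and 9 had an unadjusted p under 0.05. Of all genes 1.04% were called higher and 0.377% lower, and 16.9% had an unadjusted p under 0.05 (edgeR). The number of members called was 2 without control 2, 3 without control 3, 3 without control 4, 12 without cKO 1, 5 without cKO 2 and 0 without cKO 3, the only cKO library of set B. The same fits called 720, 997, 1268, 2707, 1490 and 310 of all genes, where the fit on 6 libraries called 2001. With RLE scaling 4 members were called higher and 2 lower, beside 949 and 1214 of all genes, and DESeq2 called 10 higher and 2 lower. The 2 lower ones were Cplx3 and Rims1 in both. Over all genes DESeq2 called 1204 higher and 1672 lower, where the main test called 1062 and 939. The fold changes of all 8 genes were above 0 in all 15 alternatives. Those alternatives refit the libraries from which the 8 were chosen as higher, so the sign was largely set beforehand.

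**Figure D1:**
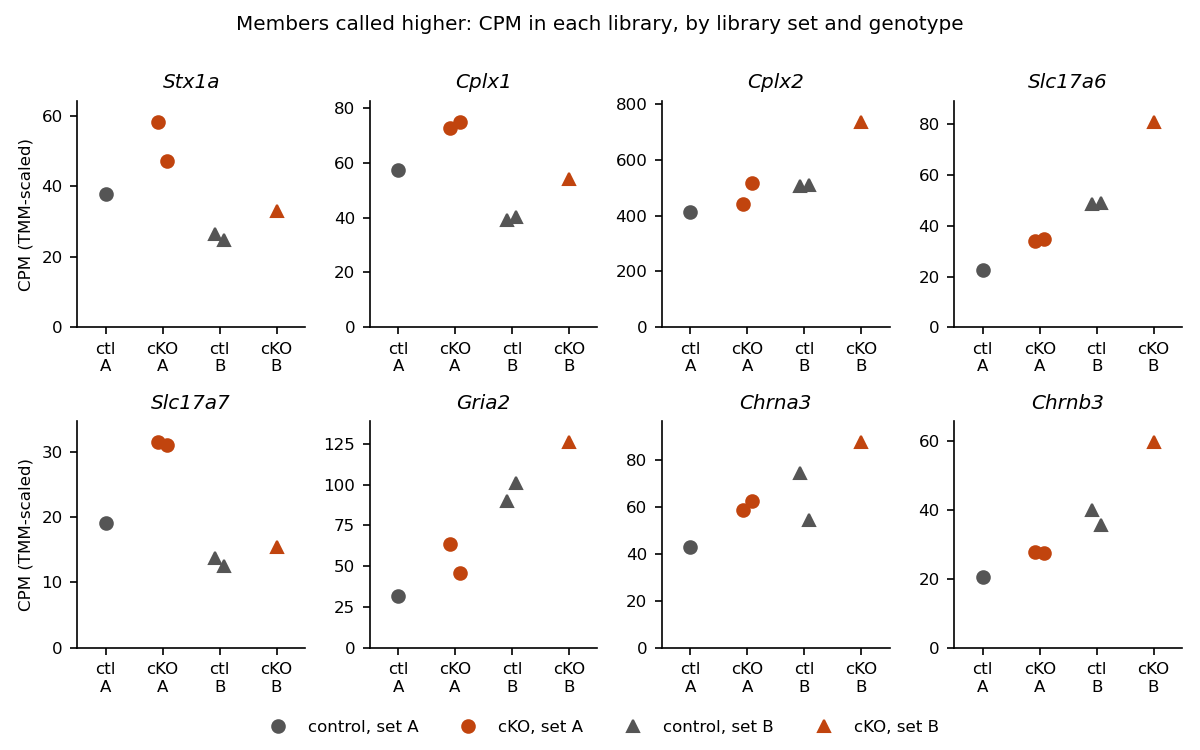
CPM (TMM-scaled, linear axis from 0) of the 8 genes called higher, 1 panel a gene, with 1 point per library, circles for set A and triangles for set B, grey for control and orange for cKO. In each panel the cKO points lie above the control points of the same set, while for Slc17a6, Gria2 and Chrnb3 the set A cKO points lie below the set B controls.

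Promoter sequence is shown for the called genes in which a motif was found within the RefSeq table (build GRCm38.p6, 250 bases before to 50 bases after a start site) and whose start lies in or next to the annotated gene. The motifs were the E-boxes CAGCTG and CAGATG, the type of site that basic helix-loop-helix factors of retinal neurogenesis bind, and TAATTA, a core that homeodomain proteins bind, added after values were seen. CAGCTG and TAATTA read the same on both strands, and CAGATG was searched on both. Capitals mark the matches. The windows are chr5:135023232-135023531 on the plus strand for Stx1a, chr5:108549978-108550277 on the minus strand for Cplx1, and chr7:51624387-51624686 on the plus strand for the second listed start of Slc17a6.
Stx1a: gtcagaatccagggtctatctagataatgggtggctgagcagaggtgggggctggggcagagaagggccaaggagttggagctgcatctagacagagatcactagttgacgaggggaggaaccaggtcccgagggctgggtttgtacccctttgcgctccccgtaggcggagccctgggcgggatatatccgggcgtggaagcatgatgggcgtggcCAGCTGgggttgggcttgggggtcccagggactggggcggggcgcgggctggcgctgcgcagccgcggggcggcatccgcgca
Cplx1: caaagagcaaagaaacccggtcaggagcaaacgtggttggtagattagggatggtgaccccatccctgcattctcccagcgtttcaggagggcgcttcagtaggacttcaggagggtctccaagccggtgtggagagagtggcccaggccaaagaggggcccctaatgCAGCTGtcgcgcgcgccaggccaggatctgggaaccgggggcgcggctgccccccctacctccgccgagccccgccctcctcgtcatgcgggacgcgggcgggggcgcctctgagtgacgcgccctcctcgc
Slc17a6: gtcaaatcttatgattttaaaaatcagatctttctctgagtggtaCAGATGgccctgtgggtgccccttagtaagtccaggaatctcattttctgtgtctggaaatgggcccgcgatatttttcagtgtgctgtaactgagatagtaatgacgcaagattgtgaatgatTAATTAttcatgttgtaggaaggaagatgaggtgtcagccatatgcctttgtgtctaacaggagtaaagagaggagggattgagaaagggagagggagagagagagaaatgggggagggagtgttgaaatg
In Stx1a the CAGCTG begins 33 bases before the start site and in Cplx1 82 bases before it. In Slc17a6 the CAGATG begins 205 and the TAATTA 81 bases before the second start. The window of its first listed start held none of these motifs and is not shown.

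Among 32851 promoters in the table, 16.3% held CAGCTG, 17.15% CAGATG and 5.291% TAATTA. Among the 34 promoters of the 27 members that matched, CAGCTG was in 8, CAGATG in 5 and TAATTA in 1. Of the 8 promoters of the called genes, 3 held CAGCTG, the third being Cplx2. Chrnb3 is not in the table. These matches describe the letters of the windows and are no measure of binding.

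Genes of the release machinery were the most abundant members. Per kilobase of exon, the highest control means were those of Cplx2 (96.7 CPM per kb), Vamp2 (79.6), Snap25 (60.3) and Syt1 (33.6). Complexins clamp and trigger the assembled SNARE complex, VAMP2, SNAP-25 and syntaxin-1A form that complex, and synaptotagmin-1 is its calcium sensor. The lowest of these 14 genes was Cplx4, a complexin of ribbon synapses, at 1.74 CPM per kb in controls. Neighbours in this order, such as Cplx3 (21.0) and Cplx1 (20.8), were not separated by the spread between libraries.

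Stx1a, which encodes the plasma-membrane SNARE protein syntaxin-1A (GRCm38, as for all genes here, chr5:135023482-135051100), gave 37.9, 26.6 and 24.8 CPM for controls 2, 3 and 4, against 58.4, 47.2 and 32.9 CPM for the cKO libraries 1, 2 and 3. Within each set every cKO library was above every control, but cKO 3 of set B was below control 2 of set A. The log2 fold change was 0.42 (SE 0.11, adjusted p = 0.038, edgeR), and the call was lost without any 1 of the controls, without cKO 3 and with RLE scaling.

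Cplx1 (chr5:108518554-108550024), a complexin of conventional synapses, gave 57.3, 39.2 and 40.2 CPM in the controls against 72.8, 75.0 and 53.9 CPM in the cKO libraries. It rose by 0.40 in log2 terms (SE 0.08, adjusted p = 0.013, edgeR), by 0.37 within set A and 0.44 within set B. The call was lost without control 2, control 3 or cKO 3. Cplx2 (chr13:54371349-54383917), a close paralog, gave 411, 508 and 511 CPM in the controls against 443, 517 and 737 CPM in the cKO libraries. Its rise of 0.38 (SE 0.10, adjusted p = 0.0447, edgeR) was 0.22 within set A and 0.53 within set B, and cKO 1 was below controls 3 and 4. That call was lost without any 1 of the controls, without cKO 2 or cKO 3, and with RLE scaling.

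The other pair of complexins, Cplx3 and Cplx4, is found at ribbon synapses of photoreceptors and bipolar cells. Bulk counts do not show which cells their reads come from. Cplx3 gave 63.8, 53.4 and 68.7 CPM in the controls against 49.1, 52.8 and 45.0 CPM in the cKO libraries, with every cKO library below every control. Its difference of -0.38 on the log2 scale missed the threshold (SE 0.11, adjusted p = 0.0596, edgeR). It passed with RLE scaling, without the filter and in DESeq2. With sex as a further term the difference was -0.16 (adjusted p = 0.668, edgeR), and the lowest control, control 3, was the female one. Cplx4 differed by 0.06 (SE 0.20, adjusted p = 0.892, edgeR). The ratio of Cplx1 to Cplx3 per kilobase was 1.21, 0.989 and 0.789 in controls and 2.0, 1.92 and 1.62 in cKO libraries, so that the groups did not overlap in this ratio. This ratio was chosen after its values were seen and was not tested.

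Of the vesicle membrane proteins, Sv2a, a glycoprotein of nearly all vesicles, stood at 0.28 in log2 fold change (SE 0.08, adjusted p = 0.0587, edgeR), and Syp, encoding synaptophysin, 0.15, and Sv2b 0.07, neither near the threshold. Syp shares 16.8% of its exon bases with another annotated gene. The SNARE genes Snap25 (0.16) and Vamp2 (0.17) and the calcium sensor Syt1 (0.27, adjusted p = 0.118, edgeR) were not called. Of the active zone scaffolds, Rims1, which tethers vesicles and calcium channels, was at -0.29 (SE 0.09, adjusted p = 0.0696, edgeR), while the giant scaffolds Bsn (0.14) and Pclo (0.12) had adjusted p of 0.446 and 0.625 (edgeR). Over the 14 genes the median log2 fold change was 0.16 and 12 were above 0. The median over all genes was -0.001.

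**Figure D2:**
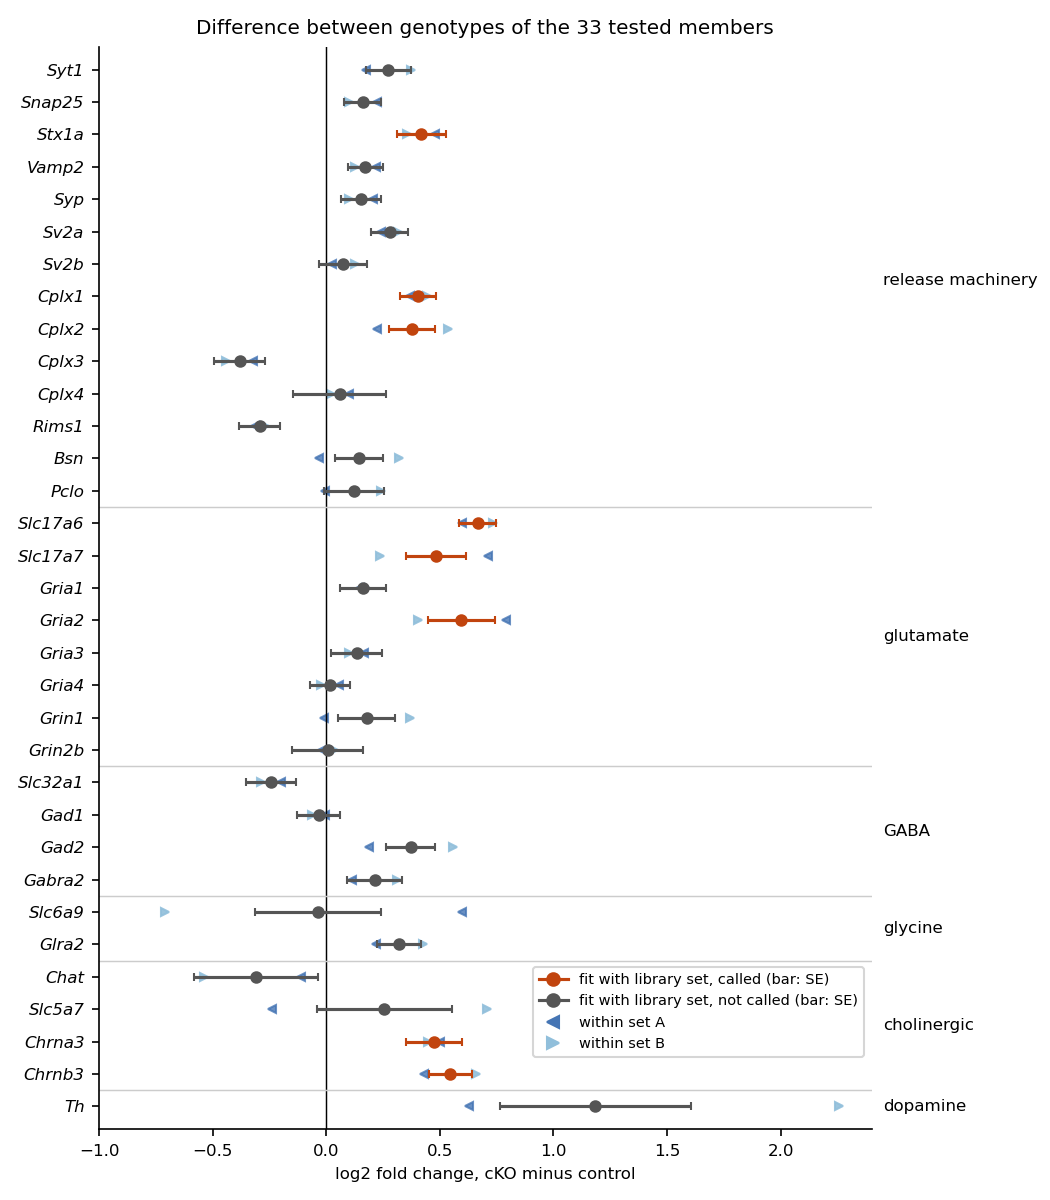
Log2 fold change, cKO minus control, of the 33 tested genes grouped by role, with the value of the fit with library set (circle, bar: standard error) and the separate values within set A and set B (triangles). Orange circles mark the 8 genes called, all right of 0, and Cplx3 and Rims1 lie left of 0 in both sets.

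Among the glutamate genes, both vesicular transporters and 1 of 6 receptor subunits rose. Slc17a6 (chr7:51622006-51671119) encodes VGLUT2, the transporter that loads glutamate into vesicles of retinal ganglion cells. It gave 22.8, 48.6 and 48.9 CPM for controls 2, 3 and 4, against 34.1, 34.7 and 81.1 CPM for the cKO libraries 1, 2 and 3. The cKO libraries of set A were above their control and cKO 3 was above both set B controls, although all set A libraries were below all set B libraries. The log2 fold change was 0.67 (SE 0.08, adjusted p = 0.00206, edgeR), or 0.60 within set A and 0.73 within set B. With sex as a further term it was 0.70 (adjusted p = 0.063, edgeR), and without cKO 3 the call was lost.

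Slc17a7 (chr7:45163949-45176142) encodes VGLUT1, the transporter of photoreceptors and bipolar cells. It gave 19.1, 13.8 and 12.4 CPM in the controls against 31.5, 31.0 and 15.4 CPM in the cKO libraries. Here set A was the higher set, and cKO 3 lay below control 2. The log2 fold change was 0.48 (SE 0.13, adjusted p = 0.0489, edgeR), or 0.71 within set A and 0.24 within set B. The call was kept in 5 of 15 alternatives, the fewest of the 8 genes, and was lost without any 1 of the 6 libraries. The ratio of Slc17a6 to Slc17a7 per kilobase followed the sets: it was 1.19, 1.08 and 1.12 in control 2, cKO 1 and cKO 2 and 3.53, 3.93 and 5.25 in control 3, control 4 and cKO 3.

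Gria2 (chr3:80681450-80802835) encodes the AMPA receptor subunit that makes the channel impermeable to calcium once its transcript is edited. It gave 31.6, 89.8 and 101 CPM in the controls against 63.4, 45.7 and 126 CPM in the cKO libraries. The 2 cKO libraries of set A differed from each other by about as much as the nearer one differed from its control, and both were below the set B controls. The log2 fold change was 0.59 (SE 0.15, adjusted p = 0.033, edgeR), with the call lost without any 1 of the controls or cKO 3. The other AMPA receptor subunits, Gria1 (0.16), Gria3 (0.13) and Gria4 (0.02), and the NMDA receptor subunits Grin1 (0.18) and Grin2b (0.01), were not called, with adjusted p from 0.353 to 0.984 (edgeR). Gria4 was the most abundant of these 6 subunits per kilobase, at 11.3 CPM per kb in controls, and Grin2b the least, at 1.19. Part of the Grin1 exons, 13.5%, is shared with a gene annotated on the other strand, and whether reads were counted by strand is not given.

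The inhibitory transmitter genes did not pass the threshold. GABA is made by the glutamic acid decarboxylases GAD67 (Gad1) and GAD65 (Gad2), and GABA and glycine share the vesicular transporter VGAT (Slc32a1). In the retina these genes mark most amacrine and horizontal cells. Gad2 gave 83.8, 81.0 and 95.6 CPM in the controls against 93.2, 97.2 and 130 CPM in the cKO libraries, above control within each set. Its log2 fold change was 0.37 (SE 0.11, adjusted p = 0.0574, edgeR), and it passed the threshold in 6 of the 15 alternatives.

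Gad1 gave 46.0, 31.3 and 36.2 CPM in the controls against 47.5, 44.1 and 32.3 CPM in the cKO libraries, with overlap between groups in both sets and a log2 difference of -0.03 (adjusted p = 0.86, edgeR). Slc32a1 gave 21.6, 13.4 and 14.6 CPM in the controls against 18.6, 19.1 and 11.5 CPM in the cKO libraries. Its cKO libraries were below control within each set, with a log2 difference of -0.24 (SE 0.11, adjusted p = 0.199, edgeR). Of its exons, 24.9% are shared with a gene on the other strand. The GABA-A receptor subunit Gabra2 was at 0.21 (adjusted p = 0.313, edgeR).

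Of the glycine genes, Slc6a9 encodes GlyT1, the plasma-membrane glycine transporter of glycinergic amacrine cells and glia. It gave 7.23, 10.9 and 13.9 CPM in the controls against 11.2, 10.8 and 7.59 CPM in the cKO libraries. The direction differed between sets: in set A both cKO libraries were above the control (0.60), and in set B the cKO library was below both controls (-0.71). A test of that difference between sets gave an unadjusted p of 0.00243 and an adjusted p of 0.665 (edgeR, interaction term), and 4 of all genes passed this test. In Slc6a9, 30.2% of the exon bases are shared with genes on the other strand. Glra2, the glycine receptor subunit of immature neurons, was at 0.32 (SE 0.10, adjusted p = 0.064, edgeR), with all cKO libraries above all controls.

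Cholinergic genes split into receptors that rose and low synthesis genes that did not pass the test. Starburst amacrine cells are the main cholinergic neurons of the retina. Chat, which makes acetylcholine, gave 1.94, 2.06 and 1.99 CPM in the controls against 2.09, 1.52 and 1.40 CPM in the cKO libraries (log2 fold change -0.31, SE 0.27, adjusted p = 0.529, edgeR). Slc5a7, the choline transporter that supplies it, gave 1.18, 2.54 and 1.82 CPM in the controls against 0.928, 1.06 and 3.58 CPM in the cKO libraries. It followed the sets more than the genotypes, and its log2 fold change was 0.26 (SE 0.30, adjusted p = 0.649, edgeR).

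Chrna3 (chr9:55010111-55026562) encodes the alpha3 subunit of the heteromeric nicotinic receptors on which early retinal waves depend. It gave 42.7, 74.2 and 54.3 CPM in the controls against 58.5, 62.4 and 87.7 CPM in the cKO libraries. Control 3, the female control, lay above cKO 1 and cKO 2 and below cKO 3. The log2 fold change was 0.47 (SE 0.12, adjusted p = 0.0381, edgeR), close in set A (0.50) and set B (0.45), and with sex as a term it was 0.19 (adjusted p = 0.572, edgeR). Without control 2, control 4, cKO 2 or cKO 3, and with RLE scaling, Chrna3 was not called.

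Chrnb3 (chr8:27368711-27399730) encodes the beta3 accessory subunit, which is found in retinal ganglion cells. It gave 20.5, 40.0 and 35.7 CPM in the controls against 27.8, 27.5 and 59.9 CPM in the cKO libraries. The cKO libraries exceeded control within each set and all set A libraries were below all set B libraries. It rose by 0.55 in log2 terms (SE 0.10, adjusted p = 0.00894, edgeR), and the call was kept in 12 of 15 alternatives, as for Slc17a6. It was lost without cKO 3, with genotype alone and with sex as a term.

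Dopamine had 1 gene, Th, the rate-limiting enzyme of dopamine synthesis, and by the control mean it was the lowest member per kilobase. By the cKO mean it was above Chat and Slc5a7. Th gave 0.809, 0.120 and 0.133 CPM in the controls against 1.28, 1.22 and 0.613 CPM in the cKO libraries. Each cKO library was above the controls of its set, and cKO 3 lay below control 2. The log2 fold change was 1.18 (SE 0.42, adjusted p = 0.108, edgeR), the largest in size of the 33 with the widest standard error, and no value was had with a mean of at least 1 CPM as the filter.

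**Figure D3:**
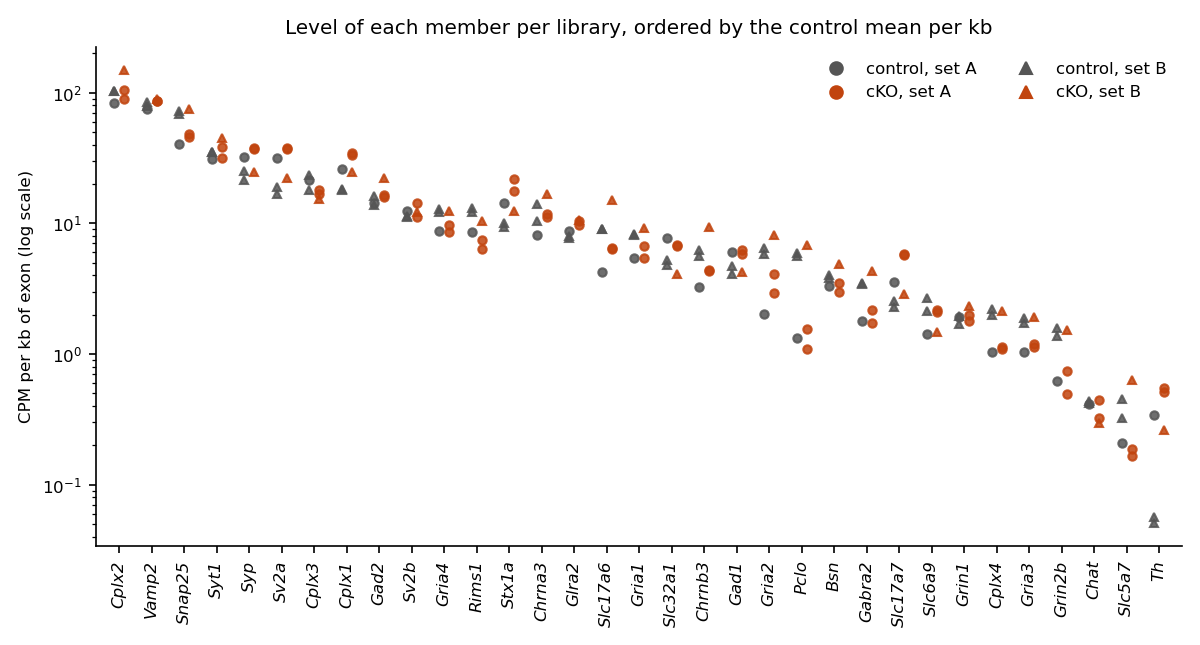
CPM per kb of exon (log axis) of the 33 tested genes in each library, ordered by the control mean, with grey for control, orange for cKO, circles for set A and triangles for set B. Genes of the release machinery hold the first 8 places, and Chat, Slc5a7 and Th the last 3.

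Over the 33 genes the median log2 fold change was 0.17, with 27 above 0, and it was 0.17 within set A and 0.24 within set B. With genotype alone the median was 0.11 and 19 were above 0. The cKO libraries lay above the controls of their set, in both sets, for 16 members and below for 3, and 14 overlapped. Of all genes 22.9% lay above and 23.8% below in this way. The set A part of these comparisons also sets female against male libraries. By role, the median was 0.16 for release machinery, 0.17 for glutamate, 0.09 for GABA, 0.14 for glycine and 0.37 for acetylcholine. With genotype alone these medians were 0.12, 0.02, 0.06, 0.11 and 0.12. The calls were 3 of 14, 3 of 8, 0 of 4, 0 of 2 and 2 of 4 in that order. Differences between roles were not tested.

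Library set moved more members than genotype did. With genotype in the model, 25 of the 33 differed between sets at adjusted p under 0.05 (edgeR), 8 higher in set A and 17 higher in set B. Of all genes 63.7% differed in this way, 5206 higher in set A and 5431 higher in set B. The largest difference was that of Pclo, at 29.6 CPM in control 2, 24.5 and 34.6 CPM in cKO 1 and 2, and 125 to 153 CPM in set B. Longer members were lower in set A: across the 33 genes the set A minus set B difference and exon length had a Spearman correlation of -0.58 and a Pearson correlation of -0.61, as a description across genes that share the same 6 libraries. Of the 15 members with at least 6000 exon bases, 13 were lower in set A (median -0.60), and of the 18 shorter ones 8 were (median 0.08). Exon length was not compared in this way over all genes.

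**Figure D4:**
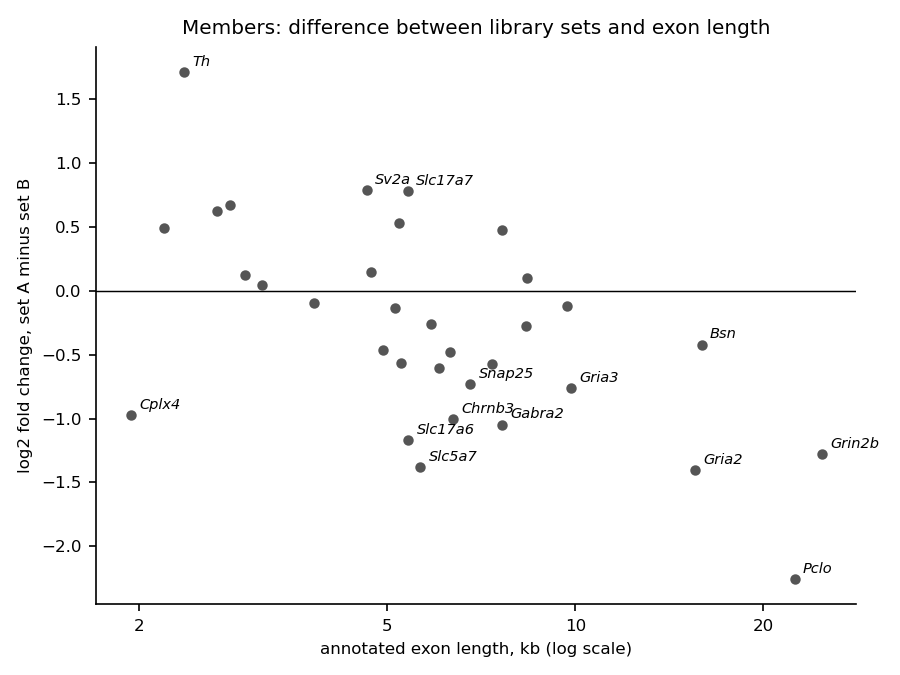
Difference between library sets (log2 fold change, set A minus set B, genotype in the model) of each of the 33 genes against its annotated exon length in kb (log axis), 1 point a gene. Below -1 lie the long genes Pclo, Gria2 and Grin2b and also Slc5a7, Slc17a6, Gabra2 and Chrnb3, while Bsn, also long, lies at -0.42 and Th above 1.5.

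Other genes of the same pathways, 210 listed by role, were read from the same fit: of 193 tested, 31 were called higher and 7 lower (edgeR, library set as a term), with a median of 0.18. That is 16.1% and 3.63% of the list, beside the 6.36% and 5.63% of all genes. With genotype alone none was called (19 of 193 at an unadjusted p under 0.05, edgeR, near the share of all genes given above), and with sex as a further term 2 were higher, Chrng among them, and 1 lower (Lrrtm1). Without cKO 3 there were 3 calls, without control 2 there were 10, without control 3 there were 17, without control 4 there were 20, without cKO 2 there were 24 and without cKO 1 there were 58. Among SNARE and fusion genes 5 of 26 rose and 1 fell. The synaptotagmins Syt4 (0.66) and Syt5 (0.57) and the dense-core vesicle priming factor Cadps (0.42) rose, and Syt9, another synaptotagmin, fell by 0.63.

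Among vesicle proteins and recycling genes 4 of 23 rose, among them Sncg (0.46), encoding gamma-synuclein, Synpr (0.46), encoding synaptoporin, and Amph (0.42), an endocytic adaptor. Sncg is also in the ganglion cell list below. Among active zone and calcium channel genes 5 of 29 rose, the first 4 by p being the channel subunits Cacnb1 (0.52) and Cacna1b (0.40), the priming factor Unc13b (0.47) and the scaffold Erc2 (0.38). Among glutamate receptor and transport genes 6 of 35 rose and 1 fell. Cnih3 (1.42) and Cnih2 (0.52), auxiliary AMPA receptor subunits, and the transporter Slc1a7 (0.46) rose, and the kainate receptor subunit Grik3 fell by 0.93, from 85.4 to 122 CPM in controls to 36.2 to 64.0 CPM in cKO libraries.

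Of 26 other GABA and glycine genes 1 rose and 2 fell, near the shares of all genes. The GABA-A receptor subunits Gabrd and Gabre fell by 1.03 and 0.83. Of 16 other acetylcholine genes 5 rose, among them the esterases Ache (0.62) and Bche (1.08) and the nicotinic subunit Chrnb2 (0.35). Chrna6 (-0.05), next to Chrnb3 in the genome, and Chrna5 (0.38) and Chrnb4 (0.15), next to Chrna3, were not called, and were chosen for mention after their values were seen. Chrng, the fetal muscle receptor subunit, had 2 reads over the controls and 302 over the cKO libraries, a ratio of 105 (exact 95% interval 28.7 to 868, counting error only). Its level stayed low, at 0.817 to 2.46 CPM in cKO libraries, and the 7 skeletal muscle genes summed to 0.897 to 2.36 CPM in controls and 1.46 to 2.60 CPM in cKO libraries. Most of that sum was Acta1, with 0.903 and 1.36 CPM as group means. Acta1 and Actc1, the 2 muscle genes that passed the filter, were not called (0.29 and 0.67), and Myog was at most 0.022 CPM. The part of muscle cells in the Chrng counts was not tested.

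Of 13 monoamine genes tested, the vesicular transporter Slc18a2 (0.97) and the serotonin transporter Slc6a4 (0.78) rose, and the noradrenaline transporter Slc6a2 fell by 1.73. Slc18a2 gave 27.3, 31.9 and 21.3 CPM in the controls against 58.5, 48.0 and 52.3 CPM in the cKO libraries, with no overlap of groups. Of 25 adhesion and scaffold genes 3 rose and 2 fell. Lrrtm2 (0.60), Homer2 (0.59) and Nlgn3 (0.55) rose, and Lrrtm1, a postsynaptic adhesion protein of excitatory synapses, fell by 1.63 (SE 0.27, adjusted p = 0.0068, edgeR), from 28.5 to 57.4 CPM in controls to 11.4 to 18.8 CPM in cKO libraries.

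**Figure D5:**
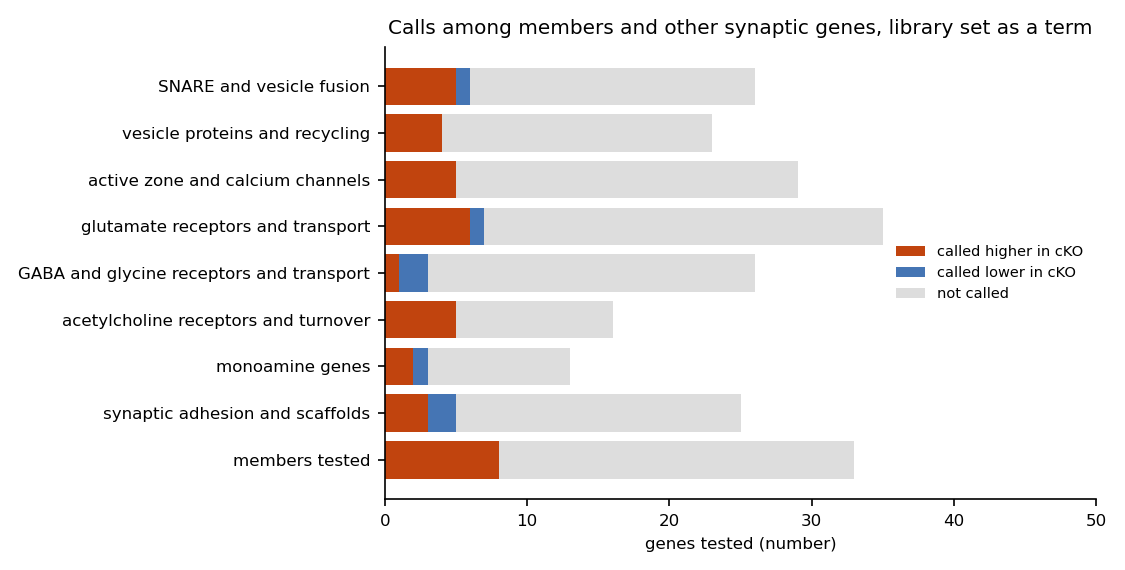
Number of genes tested in each of 8 lists of other synaptic genes and among the members, split into those called higher in cKO (orange), called lower (blue) and not called (grey) by edgeR with library set as a term. The calls are mostly higher in every list but that of GABA and glycine receptors and transport, with 1 higher and 2 lower.

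Markers of retinal cell types moved between the groups as well. Of 13 ganglion cell markers 12 were called higher, and their summed level was 1910 to 2265 CPM in controls and 2855 to 3851 CPM in cKO libraries. Pou4f2, a ganglion cell transcription factor, was at 43.5 to 47.7 CPM in controls and 63.0 to 106 CPM in cKO libraries, a log2 difference of 0.88 (adjusted p = 0.00389, edgeR). Of 12 amacrine and horizontal cell markers, which include Slc32a1, Gad1 and Gad2, Calb1 rose and Ptf1a fell, with sums of 844 to 1797 CPM in controls and 762 to 1628 CPM in cKO libraries. Of 10 progenitor markers 8 fell and 1 rose, with sums of 7202 to 7700 CPM in controls and 3724 to 4990 CPM in cKO libraries. In bulk tissue, more cells of a type and more RNA per cell cannot be told apart, and the part of these markers in the synaptic results was not tested. With genotype alone none of the 13 ganglion cell and 10 progenitor markers was called, and with sex as a further term 2 ganglion cell markers were higher and 1 progenitor marker was higher and 2 lower (edgeR).

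Of 6 tested bipolar cell markers 3 rose, all at low levels (Trpm1, Cabp5 and Bhlhe23), and 1 fell, with sums of 547 to 902 CPM in controls and 287 to 416 CPM in cKO libraries. Of 9 photoreceptor precursor markers Rxrg rose by 0.69 and Otx2 and Prdm1 fell by 0.45 and 0.48, with sums of 1369 to 2240 CPM in controls and 1286 to 1604 CPM in cKO libraries. Of 6 tested starburst amacrine markers 1 rose and 1 fell, with overlapping sums of 361 to 432 CPM in controls and 323 to 387 CPM in cKO libraries. The members Chat and Slc5a7 are in this list, were not called, and gave at most 2.09 and 3.58 CPM in any library. Most of the sum thus came from its other genes, of which Isl1 is also a ganglion cell marker and Sox2 also a progenitor marker here. The part of these cells in the values of Slc17a7, Cplx3 and Chat was not tested.

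Several lists of markers for cells from outside the neural retina differed too. Of 7 tested pigment epithelium markers none was called, and of 6 astrocyte markers 1 rose, with sums that overlapped between groups in both lists. All 10 tested lens markers were called higher, with sums of 2.63 to 6.14 CPM in controls and 842 to 2285 CPM in cKO libraries. Of 7 microglia markers 6 rose (20.9 to 35.9 CPM against 58.4 to 77.5 CPM in sum), and of 10 tested forebrain neuron markers 6 rose (125.5 to 154 CPM against 161 to 263 CPM). Among them were Tbr1 (1.79), Neurod2 (1.46), Neurod6 (2.54), Bcl11b (0.68) and Dlx1 (0.69). The forebrain list already summed to at least 125.5 CPM in control retinas, and the part of forebrain cells in its rise was not tested. Of the 4 forebrain markers under the filter, Nkx2-1 and Hcrt were at 0 in all controls and at most 0.028 CPM in a cKO library, Emx1 was at most 0.097 CPM and Emx2 at most 0.539 CPM. Of 7 endothelium and pericyte markers 5 rose and Kdr fell by 0.71, with sums of 545 to 721 CPM in controls and 293 to 576 CPM in cKO libraries. The sum was lower in cKO libraries within each set, while the median log2 fold change of the 7 was 1.70. It therefore does not stand for most of the list. Of 4 tested blood markers 2 rose, with sums of 0.598 to 12.4 CPM against 18.7 to 22.4 CPM. With genotype alone 7 lens markers and none of the other outside markers named here were called, and with sex as a further term 10 lens, 2 endothelium, and 1 each of microglia, forebrain and blood markers were higher (edgeR). The part of these cells in the synaptic results was not tested.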

How the data were processed

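Reads were counted per gene in 6 retinal libraries. The deposited values are whole-number counts of reads per Ensembl gene, made by the authors with STAR, HTSeq and GRCm38 per the submitters' processing notes, with no versions given. Rows that name no gene held 26.4 to 28.8% of a library's counts and stayed out of library sizes and tests. Symbols and exon lengths came from GENCODE vM21, which matched 37607 of 39179 identifiers (96.0%). Groups came from titles and genotype labels; libraries were treated as separate animals, which the series text states as 3 per genotype.

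The test was edgeR 4.0.16 under R 4.3.3 (filterByExpr, TMM, glmQLFit, glmQLFTest), with library set and genotype as terms, 2-sided, Benjamini-Hochberg adjusted over 16691 genes, threshold 0.05. Set A has over 2.9% ambiguous counts. The fit leaves 3 residual degrees of freedom. Each standard error is the log2 fold change over the root of its F. At 31483170 reads or more a library, counting error is small for all but the lowest genes. DESeq2 1.42.0 and limma 3.58.1 (voom) were alternatives. The code was tested on simulated data. Members and lists were chosen with earlier results of these data known. Members past the threshold or that define a transmitter are given in every library, and up to 4 genes of smallest p in each other list are named, except for some genes that are not reported here. The muscle genes and TAATTA were added after values were seen.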

Additional observations from a re-analysis of the deposited data

How the results depend on the processing

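The 8 calls need a term for library set or label number and rest on few libraries. Genotype alone gave 36 genes, 0 members and 0 other synaptic genes called; library set with sex gave 236, 0 and 3. With the replicate block, which uses the label numbers shared by the groups (2 and 3) in place of library set, there were 2040, 10 and 44. Control 4 and cKO 1 have numbers found in only 1 group and add nothing to the genotype difference of that fit. Same-numbered libraries correlated at 0.77 and 0.674 in their deviations, but they also share a library set, and other libraries of 1 set correlated at 0.671 to 0.714, so the numbers do not show a pairing. Without the filter 3063 genes were called. Leaving out 1 library gave 310 to 2707 genes, 0 to 12 members and 3 to 58 other synaptic genes. No overlap within each set, chosen after seeing the data, held for 19 members, 16 above and 3 below. Of all genes 22.9% lay above and 23.8% below in this way.

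No called member changed sign, which their choice from the same libraries makes likely. Uncalled ones did, all at adjusted p over 0.05. With genotype alone these were Snap25 (-0.092), Cplx4 (-0.27), Pclo (-0.45), Gria1 (-0.035), Gria3 (-0.125), Gria4 (-0.15), Grin2b (-0.39), Gad1 (0.13), Gabra2 (-0.094) and Slc5a7 (-0.009). With sex these were Gria4 (-0.048), Grin2b (-0.115) and Gad1 (0.094). Gria4 gave -0.021 with RLE and with DESeq2, and Grin2b -0.031 and -0.032, and without the filter they gave -0.01 and -0.02. Gad1 gave 0.002 with library size alone, and Slc6a9 0.044 with the replicate block and 0.052 with limma-voom. Leaving out 1 library gave -0.003 to 0.32 for Bsn, -0.03 to 0.085 for Gria4, -0.12 to 0.12 for Grin2b, -0.084 to 0.02 for Gad1, -0.71 to 0.63 for Slc6a9 and -0.21 to 0.71 for Slc5a7. The cause was not tested. The set by genotype interaction passed for 4 genes, or 6 with RLE, and for no member.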
